A study of Mus musculus with 36 samples.

Results

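C4b, C4a, C3, Serping1, C3ar1 and C5ar1 are 6 genes of the complement system, and their RNA was followed in the hippocampus of ageing mice. They were chosen by name, as the rows of the deposited table that carry these 6 symbols, and they make up 6 of its 36172 gene entries. The choice was made with their levels in these libraries known, so their differences between age groups, between induction groups and between pulldown and input are described without a test. Sex had no part in the choice and was tested.

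All animals carried the genotype Cx3cr1-NuTRAP, and per the series title cre was induced with tamoxifen in all of them. In this model the promoter of Cx3cr1, a chemokine receptor gene of microglia and of other macrophages, drives an inducible cre recombinase that switches on a fluorescent ribosome tag. Ribosome-bound RNA of the tagged cells is pulled down with an antibody, which is called translating ribosome affinity purification (TRAP), while the input is RNA of the whole tissue set aside before the pulldown. The study asked whether the age at induction affects how specific the pulldown is and which age differences can be seen. The young group held inputs of 10 early-induced animals (5 females, 5 males) and the old early group inputs of 12 early-induced animals (7 females, 5 males). The old late group held 7 late-induced animals (5 females, 2 males), each with an input and a TRAP library. The labels give ages of 6 and 22 months. TRAP libraries of the other groups were not analysed here, so the pulldown could be compared with input only in old late-induced animals, and the age comparisons rest on whole tissue.

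Complement is a cascade of plasma and tissue proteins that tags debris, microbes and, in the brain, synapses for removal. C1q, a complex of 3 chains, starts the classical pathway. C4 is cut next and helps form the enzyme that cuts C3, and the fragments of C3 mark a surface for uptake and release C3a, a signalling peptide. C4b encodes the C4 protein of the mouse, C4a is its close copy, also known as sex-limited protein, and Serping1 encodes the C1 inhibitor, which blocks the proteases bound to C1q. C3ar1 and C5ar1 encode the receptors for C3a and C5a. In the brain the C1q chains and these receptors are known mainly from microglia, while C4 is known from several cell types, astrocytes and oligodendrocytes among them.

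The 6 genes all lie on the minus strand, in mm10 coordinates of the deposited table. C4b (identifier 12268) spans chr17:34728381-34743897 and C4a (625018) spans chr17:34809092-34823454, so both lie in the same stretch of chromosome 17. C3 (12266) spans chr17:57203973-57228136, Serping1 (12258) chr2:84765360-84775429, C3ar1 (12267) chr6:122847140-122856157 and C5ar1 (12273) chr7:16246743-16259540. No other gene entry of the table overlapped any of them (0 for each). C4a is listed as protein-coding in the table and as a processed transcript in GENCODE M21.

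C4b and C4a are near-identical, so reads can fall on either. Their transcripts C4b-201 (5379 bases, 41 exons) and C4a-207 (5371 bases, 41 exons) shared 96.1% of 5367 aligned bases and differed at 207. Of all stretches of 50 bases in C4b-201, 35.2% also occurred in C4a-207, and the same share held the other way. The stretch of 60 bases within coding exons in which the pair differed most lies in exon 21 (GRCm38, minus strand), where a read can tell them apart, and capitals mark its 13 differing bases.
C4b, chr17:34735430-34735489: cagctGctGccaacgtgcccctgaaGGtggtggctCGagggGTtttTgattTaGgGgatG
C4a, chr17:34816086-34816145: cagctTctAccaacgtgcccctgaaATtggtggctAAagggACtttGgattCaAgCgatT
How the reads shared by the pair were assigned is not given in the sources used here, so the level of C4a in particular is uncertain.

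C3 and C3ar1, ligand precursor and receptor, were both higher in old inputs and in TRAP, and their promoters are shown for that reason. The windows hold 300 bases around the start site and are RefSeq sequence of GRCm38.p6, minus strand. They were searched on both strands for GAGGAA (the core bound by PU.1, a factor of microglia and other myeloid cells), GAAA repeated with 2 bases between (ISRE, interferon response), TTCNNNGAA (GAS, STAT factors), GGG and TTTCC with 2 bases between (NF-kB) and TTGCNNAA (C/EBP), and capitals mark the matches.
C3, chr17:57228087-57228386: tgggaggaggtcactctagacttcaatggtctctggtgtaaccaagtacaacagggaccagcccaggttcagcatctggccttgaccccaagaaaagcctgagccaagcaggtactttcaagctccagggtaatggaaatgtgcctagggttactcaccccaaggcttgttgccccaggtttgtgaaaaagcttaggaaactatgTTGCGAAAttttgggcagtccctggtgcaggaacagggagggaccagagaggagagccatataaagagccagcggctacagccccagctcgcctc
C3ar1, chr6:122856108-122856407: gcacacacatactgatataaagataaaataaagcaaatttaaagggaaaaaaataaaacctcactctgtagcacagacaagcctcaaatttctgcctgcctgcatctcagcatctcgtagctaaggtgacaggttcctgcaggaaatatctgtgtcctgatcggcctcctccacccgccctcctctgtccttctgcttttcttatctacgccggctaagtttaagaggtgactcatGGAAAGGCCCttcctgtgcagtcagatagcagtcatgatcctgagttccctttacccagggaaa
The C3 window held 1 match, to the C/EBP motif, whose first base lies at -45 from the start site. The C3ar1 window held 1 match, to the NF-kB motif on the opposite strand, with its first base at -14. Neither match overlapped another. Of 32851 promoter windows of the same length, 10.8% held the C/EBP motif, 1.6% the NF-kB motif, 28.3% the PU.1 core, 8.3% the GAS core and 3.4% the ISRE core. The window of C5ar1 held none of the 5 motifs, and C4b, C4a and Serping1 were not searched.

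Libraries held 12.9 to 20.4 M estimated counts. Levels are given as CPM, counts scaled to a common library size after TMM. The summed choroid plexus levels and the line drawn through them use CPM of the plain library total instead. Cx3cr1 was 13.7 to 21.5 times higher in TRAP than in input in the 7 animals, and the summed level of 10 microglia markers was 15.4 to 20.6 times higher. The library numbers in the labels run from 1 to 23 in old early, 25 to 38 in old late and 39 to 57 in young animals, so whatever goes with that numbering and the groups cannot be told apart. The inputs fell into separate sets by choroid plexus RNA. The summed level of 7 choroid plexus markers was between 49.2 and 192 CPM in 14 inputs and between 1748 and 4224 CPM in the other 15, and each group held both kinds. At a line of 1000 CPM, drawn after these values were seen, 4 young, 8 old early and 2 old late inputs were under it and 6, 4 and 5 were over it. Nothing in the labels says that libraries of a group came from separate litters or cages, and p-values measure the spread between these animals.

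C4b had the highest level per kilobase of transcript among the 6 genes in every group and was higher in old animals. In young inputs it lay between 37.9 and 59.4 CPM, with a median of 45.2. In old early inputs it lay between 132 and 271 CPM, with a median of 192. In old late inputs the range was 144 to 344 CPM and the median 283. Every old input was higher than every young input, while the ranges of the old early and old late inputs overlapped. The share of all genes whose old and young inputs separate fully was not computed. Nothing is read from that separation, here or for C3 below. The means were 46.4 ± 6.57 CPM (SD, n = 10), 196 ± 39.9 CPM (SD, n = 12) and 246 ± 79.4 CPM (SD, n = 7), which is 4.22 times the young mean in old early and 5.29 times in old late animals. The log2 fold changes against young inputs were 2.04 ± 0.12 and 2.32 ± 0.13 (SE), and both use the same young libraries. In bulk tissue, more or fewer cells of a type and more or less RNA per cell cannot be told apart.

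**Figure D1:**
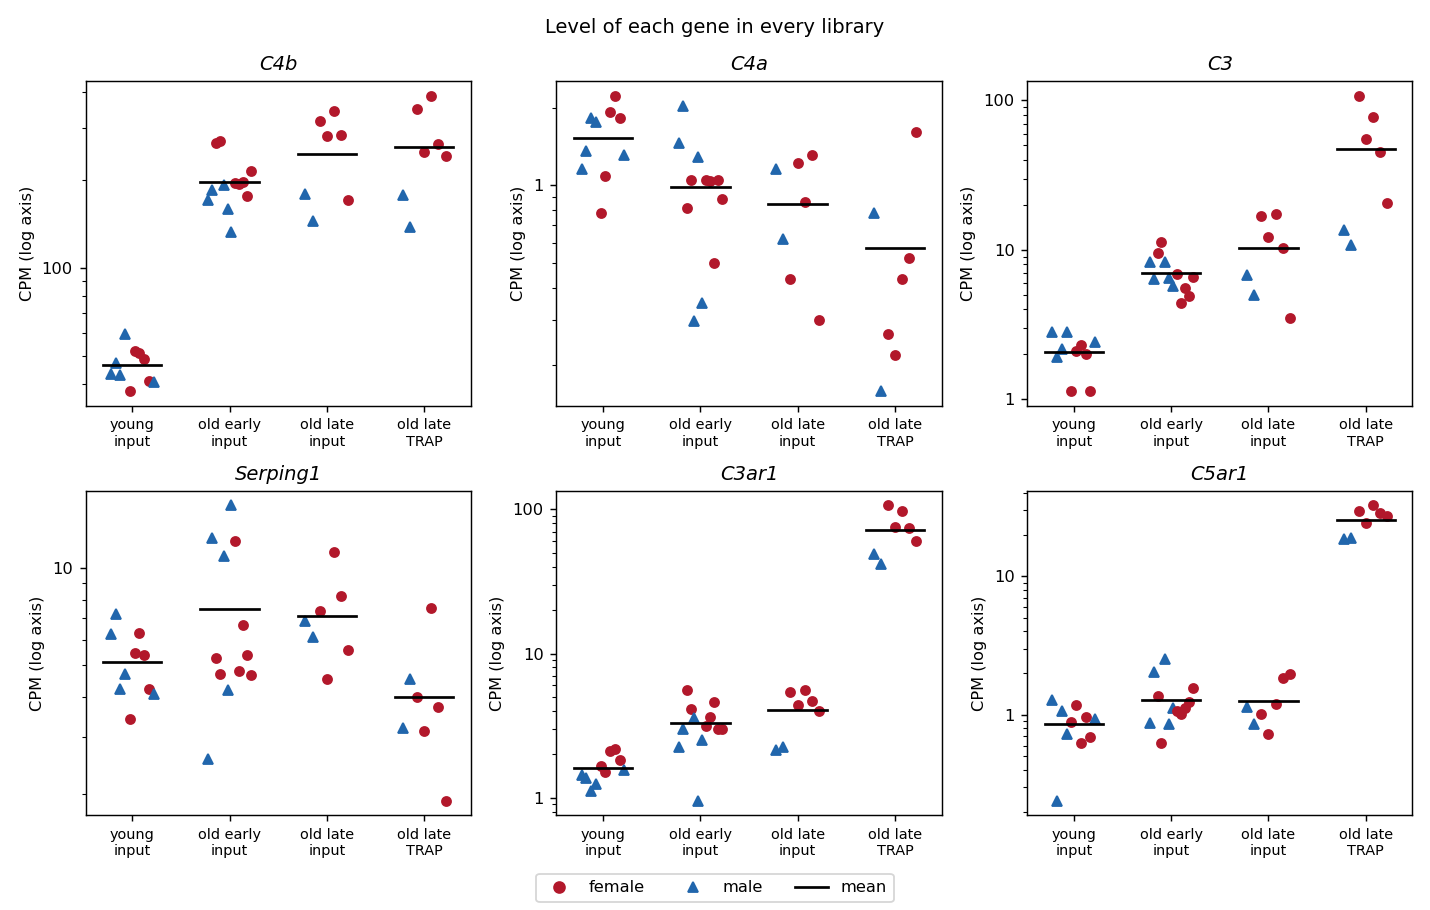
CPM on a log axis for each of the 6 genes in every library of young input (n = 10), old early input (n = 12), old late input (n = 7) and old late TRAP (n = 7), with females as circles, males as triangles and group means as lines. C4b and C3 are higher in every old input than in every young one, and C3ar1 and C5ar1 are higher in every TRAP library than in every input. The share of all genes that separate in either way was not computed.

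In TRAP libraries C4b reached 138 to 387 CPM, with a median of 248, and the range overlapped that of the inputs of the same animals. The ratio of TRAP to input was 0.994, 0.957, 1.11, 0.879, 1.13, 0.934 and 1.41 in the 7 animals, above 1 in 3 and below 1 in 4. Its geometric mean was 1.05, against 17.1 for Cx3cr1. So C4b was neither enriched nor depleted beyond the spread of these ratios. Its log2 fold change was 0.05 ± 0.14 (SE). Here and for the other genes, the SE of TRAP against input comes from a fit that did not pair the libraries of an animal. Among marker lists of cell types, taken gene by gene as the geometric mean over animals, microglia markers ran from 7.61 to 21.2, endothelial markers from 1.48 to 3.3, neuronal markers from 0.762 to 1.11, astrocyte markers from 0.518 to 0.913 and oligodendrocyte markers from 0.315 to 0.473. Markers of mural cells of blood vessels, where detected in every old late library, ran from 0.605 to 1.06. The C4b ratio lay inside the neuronal and mural ranges, above all 9 astrocyte markers and below all 10 microglia markers.

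Some markers of other cell types moved with age beside C4b, in either direction. The summed level of 9 astrocyte markers was 3819 to 4263 CPM in young, 4143 to 4977 CPM in old early and 4322 to 5212 CPM in old late inputs. Of these 9, edgeR called 3 higher in old early and 3 in old late inputs, where 13% and 17% of all genes were called higher. The astrocyte marker Gfap was at 415 to 478 CPM in young, 653 to 954 CPM in old early and 668 to 1242 CPM in old late inputs. Of 8 oligodendrocyte markers, 7 were called higher in old early and 8 in old late inputs, and their sum was 3019 to 4673, 3843 to 5629 and 4111 to 6885 CPM in the 3 groups. Of 10 microglia markers, 9 and 10 were called higher. Of 8 neuronal markers, 1 was called higher and 1 lower in old early inputs. In old late inputs 0 neuronal markers were called higher and 4 lower, where 17.5% of all genes were lower. Of 8 fibroblast markers 0 were called in either comparison. Of 4 blood markers, genes of red blood cells, 2 and 4 were called higher, with median log2 fold changes of 0.93 and 1.47, and their sum was 143 to 346, 130 to 2275 and 275 to 719 CPM. Lyz2, a gene of macrophages and activated microglia, averaged 7.56 ± 0.975 CPM (SD, n = 10) in young, 27.3 ± 5.52 CPM (SD, n = 12) in old early and 43.7 ± 23.5 CPM (SD, n = 7) in old late inputs. The part of these cell types in the level of C4b was not tested.

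C4a was close to the lower limit of what these libraries can show, with 2 to 37 estimated counts per library. Young inputs averaged 1.53 ± 0.453 CPM of C4a (SD, n = 10) and old early inputs 0.986 ± 0.485 CPM (SD, n = 12). Old late inputs averaged 0.844 ± 0.403 CPM and their TRAP libraries 0.57 ± 0.505 CPM (SD, n = 7 each). All 4 ranges overlapped, with 0.783 to 2.23 CPM in young, 0.298 to 2.04 CPM in old early, 0.301 to 1.31 CPM in old late inputs and 0.159 to 1.61 CPM in TRAP. The order of means thus ran opposite to that of C4b. The log2 fold changes were -0.62 ± 0.26 in old early and -0.83 ± 0.31 in old late against young inputs (SE). The TRAP to input ratio of C4a ranged from 0.18 to 5.35 with a median of 0.499, and 6 of 7 animals were below 1. Per kilobase of transcript, C4b was at 8.63 CPM and C4a at 0.284 CPM in young inputs, and at 36.4 and 0.184 CPM in old early inputs.

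C3, the central component, was higher in all old inputs than in all young ones. Young inputs held 1.13 to 2.82 CPM with a median of 2.14. Old early inputs held 4.37 to 11.3 CPM with a median of 6.55, and old late inputs 3.49 to 17.3 CPM with a median of 10.3. The lowest old input, of a late-induced female, was still above the highest young one. Means were 2.08 ± 0.583 CPM (SD, n = 10), 7.03 ± 2.00 CPM (SD, n = 12) and 10.3 ± 5.51 CPM (SD, n = 7), or 3.38 and 4.94 times the young mean. The log2 fold changes against young inputs were 1.75 ± 0.24 and 2.29 ± 0.27 (SE).

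C3 differed from C4b in the pulldown. Its TRAP libraries held 13.6 and 10.7 CPM in the 2 males and 107, 55.1, 77.6, 45.5 and 20.6 CPM in the 5 females. Every animal had more C3 in TRAP than in its own input, by 2.01 and 2.14 times in the males and by 6.38, 4.52, 4.48, 4.43 and 5.89 times in the females. The ratios of the sexes did not overlap, a difference that was not tested. The share of all genes whose ratios separate in this way was not computed. Choroid plexus markers summed to 1148 and 1200 CPM in the TRAP libraries of the males. In those of the females they summed to 24.3 to 624 CPM, so sex and that level cannot be told apart here. The geometric mean ratio was 3.93 and the log2 fold change 2.03 ± 0.36 (SE). That is below all 10 microglia markers (7.61 to 21.2) and all 7 border macrophage markers (11.1 to 17.8), and above all 8 endothelial markers (1.48 to 3.3).

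**Figure D2:**
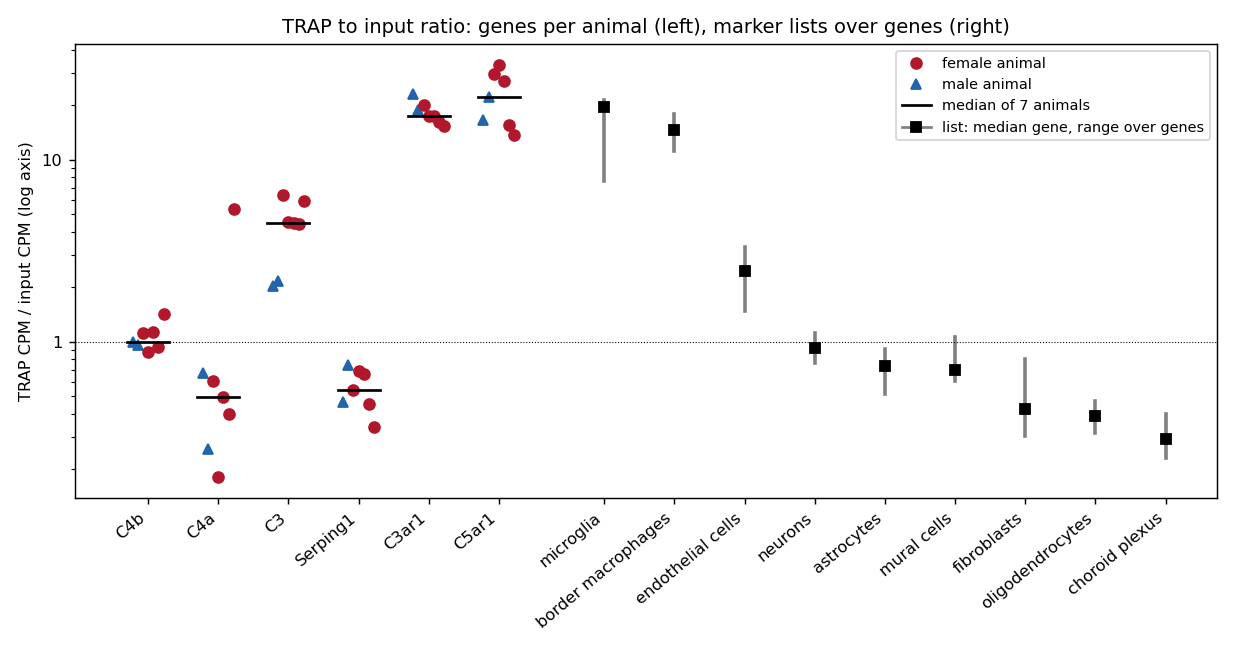
Ratio of TRAP CPM to input CPM on a log axis. On the left each point is 1 of 7 old late-induced animals and lines are medians, and on the right squares are the median gene of a marker list and bars its range over genes. C3ar1 and C5ar1 sit with microglia markers, C3 at 2.01 to 6.38, C4b around 1 and Serping1 below 1 in all 7 animals.

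The receptors had the highest ratios of the 6 genes. C3ar1 was at 41.6 to 107 CPM in TRAP with a median of 74.8, against 2.15 to 5.61 CPM with a median of 4.39 in the inputs of the same animals. C5ar1 was at 18.7 to 32.6 CPM in TRAP with a median of 27.2, against 0.731 to 1.99 CPM with a median of 1.13. For both genes the lowest TRAP library was several times above the highest input. How many of all genes separate in this way was not computed. Ratios per animal ran from 15.3 to 22.9 for C3ar1 and from 13.7 to 33.2 for C5ar1, beside 13.7 to 21.5 for Cx3cr1. The log2 fold changes were 4.16 ± 0.13 and 4.34 ± 0.16 (SE). Border macrophages, which also express Cx3cr1, had a median marker ratio of 14.5, and the summed level of their 7 markers was 7.51 to 18.2 CPM in input and 104 to 238 CPM in TRAP. Of 6 neutrophil and monocyte markers 3 were tested in TRAP against input and all 3 were called higher, where 30.4% of all genes were. From old late input to TRAP the mean of Ccr2 went from 0.313 to 1.32 CPM and that of Ly6c2 from 0.984 to 1.94 CPM. S100a8 went from 0.58 to 0.078 CPM and S100a9 from 0.94 to 0.23 CPM. Ly6g was listed at 0 in all libraries. Lyz2, which activated microglia also express, held 393 to 2043 of the summed 397 to 2047 CPM in TRAP. The share of these other cells in the receptor levels was not tested.

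The age difference of C3ar1 was smaller than those of C4b and C3. It lay between 1.12 and 2.17 CPM in young inputs with a median of 1.53, between 0.955 and 5.58 CPM in old early inputs with a median of 3.07, and between 2.15 and 5.61 CPM in old late inputs. Of 12 old early inputs 11 were above all young inputs and 1, of a male, was below all of them. Of 7 old late inputs 6 were above all young ones. The means were 1.60 ± 0.343 CPM (SD, n = 10), 3.28 ± 1.18 CPM (SD, n = 12) and 4.06 ± 1.39 CPM (SD, n = 7), or 2.05 and 2.54 times the young mean, with log2 fold changes of 0.96 ± 0.16 and 1.17 ± 0.18 (SE). Over the same comparisons the median log2 fold change of 10 microglia markers was 0.29 and 0.37.

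C5ar1 overlapped between all input groups. Its range was 0.240 to 1.27 CPM in young (median 0.911), 0.630 to 2.53 CPM in old early (median 1.12) and 0.731 to 1.99 CPM in old late inputs. These values rest on 4 to 34 estimated counts per input. The log2 fold changes against young inputs were 0.58 ± 0.24 and 0.57 ± 0.28 (SE).

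Serping1 was the member that was lower in the pulldown. Its level in TRAP was 1.91 to 7.53 CPM with a median of 3.71, against 4.55 to 11.3 CPM with a median of 6.87 in the inputs of the same animals. All 7 animals had less in TRAP, at 0.342 to 0.740 of their input, and the log2 fold change was -0.86 ± 0.25 (SE). The geometric mean ratio of 0.540 lay within the ranges of astrocyte (0.518 to 0.913) and fibroblast markers (0.304 to 0.802) and above all choroid plexus markers detected in every library (0.23 to 0.4).

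In old early inputs the level of Serping1 went with choroid plexus RNA. Young inputs held 3.42 to 7.19 CPM (median 5.04), old early inputs 2.57 to 15.7 CPM (median 5.34) and old late inputs 4.55 to 11.3 CPM, and the ranges overlapped. The 4 old early inputs above 10 CPM, at 12.4, 10.9, 15.7 and 12.2 CPM, were the 4 with choroid plexus markers over 1000 CPM. The other 8 were at 2.57 to 6.66 CPM. Over the line, old early replicates 2, 5 and 7 were male and 8 was female, while under it only replicates 1 and 6 were male. Sex and choroid plexus level thus went together in part in this group. Among inputs over 1000 CPM young animals averaged 5.67 ± 1.29 CPM (SD, n = 6) and old early animals 12.8 ± 2.03 CPM (SD, n = 4), which differ by 1.16 ± 0.21 on the log2 scale (SE). Among inputs under it the means were 4.31 ± 0.281 CPM (SD, n = 4) and 4.79 ± 1.16 CPM (SD, n = 8), differing by -0.07 ± 0.21 on the same scale (SE). The value over all inputs, 0.55 ± 0.23 (SE), thus averaged sets that differed. Old late inputs over the line, at 7.60 ± 2.27 CPM (SD, n = 5), lay below the old early ones over it, with 1 of them inside their range. The 2 old late inputs under the line were at 4.55 and 7.35 CPM, inside or below the range of 5.58 to 11.3 CPM of those over it, so in old late inputs the sides overlapped.

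**Figure D3:**
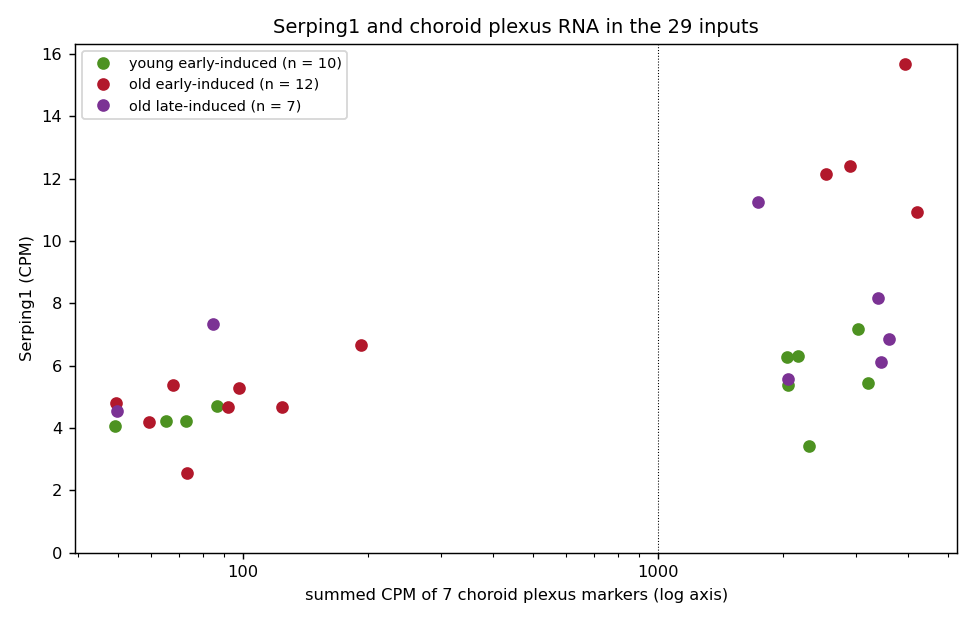
Serping1 in CPM against the summed CPM (of the plain library total) of 7 choroid plexus markers on a log axis, 1 point for each of the 29 inputs. The dotted line is at 1000 CPM. The 4 old early inputs right of the line are at 10.9 to 15.7 CPM, and the 8 left of it at 2.57 to 6.66 CPM.

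The split moved C4b and C3 little in old early against young inputs, and C3 and C5ar1 more in old late inputs. For C4b the log2 fold change of old early against young inputs was 2.03 ± 0.15 under the line and 2.06 ± 0.18 over it, and for C3 it was 1.89 ± 0.29 and 1.83 ± 0.36 (SE). C3ar1 gave 0.67 ± 0.30 and 1.1 ± 0.23, C5ar1 0.25 ± 0.35 and 1.04 ± 0.41, and C4a -0.60 ± 0.31 and -0.52 ± 0.50 (SE). For C5ar1 in old late against young inputs, where all inputs gave 0.57, -0.10 ± 0.50 was found under the line, with 2 old late inputs, and 0.71 ± 0.36 over it (SE). C3 in the same comparison gave 3.0 ± 0.37 under the line and 2.06 ± 0.32 over it (SE), beside 2.29 over all inputs.

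By edgeR's quasi-likelihood test with an adjusted p under 0.05, 3 of the 6 genes (C4b, C3 and C3ar1) were higher and 0 lower in old early than in young inputs, where 25.6% of 14948 genes tested were called, 13% higher and 12.6% lower. In old late against young inputs 3 were higher and 1, C4a, was lower, where 34.5% were called, 17% higher and 17.5% lower. In TRAP against input 3 were higher (C3, C3ar1 and C5ar1) and 1 was lower (Serping1), where 59.2% of 14596 genes were called, 30.4% higher and 28.8% lower. All 6 passed the filter on low counts in each fit. Since the members were chosen on these contrasts, the counts describe them and nothing is read from them. The same goes for the kept and changed calls listed next, which rest on the same values. The calls of C4b and C3 were kept in every alternative run for both age comparisons. That of C3ar1 was lost under the choroid plexus line in old early (adjusted p = 0.190) and old late inputs (0.0864). The call of C4a in old late inputs was lost in females only (0.0804), under (0.340) and over the line (0.263), and without any 1 of 9 inputs (old late replicates 2, 3, 5 and 7 and young replicates 3, 4 and 7 to 9, adjusted p up to 0.0912). C4a was newly called in old early inputs without young replicate 5 (0.0460) or old early replicate 2 (0.0255), and in TRAP without the library of replicate 7 (0.0412). Serping1, at an adjusted p of 0.0803 in old early against young inputs, was called over the line (0.00221) and without old early replicate 1 (0.0264) or 6 (0.0478). In old late against young inputs (0.113) it was called with only the groups compared in the fit (0.49, 0.0331).

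Old inputs of late-induced and early-induced animals overlapped for all 6 genes. Old late against old early inputs gave log2 fold changes of 0.28 ± 0.12 for C4b, 0.54 ± 0.23 for C3, 0.21 ± 0.17 for C3ar1, -0.01 ± 0.26 for C5ar1, 0.00 ± 0.26 for Serping1 and -0.21 ± 0.31 for C4a (SE). Over all inputs none was called by edgeR (0 of 6, with 2 at an unadjusted p under 0.05), where 0.0334% of all genes were called. Among inputs under the choroid plexus line, with 2 old late animals, both female, C3 differed by 1.11 ± 0.26 (SE, edgeR adjusted p = 0.0490). Over the line the difference was 0.24 ± 0.35 (SE, adjusted p = 0.975), and over all inputs the adjusted p was 0.365. These values are a description, since the line was drawn after the values were seen and C3 was chosen with this contrast known.

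The rest of the pathway was taken from lists of 49 other complement genes, of which 28 passed the filter in inputs and 26 in the old late libraries. Each was tested by edgeR with adjustment over all genes. The lists were chosen with earlier results of these data known. Their adjusted p-values in the age and TRAP comparisons are therefore no independent support, here and in the following paragraphs on these lists. In old early against young inputs 7 of 28 rose and 3 fell, where 13% of all genes rose and 12.6% fell, with a median log2 fold change of 0.10 over the 28 genes and 0.01 over all genes. Of 6 classical pathway genes 3 rose, the chains of C1q. C1qa rose by 0.72 ± 0.08 on the log2 scale (SE, adjusted p = 2.05e-07), C1qb by 0.71 ± 0.07 (4.69e-08) and C1qc by 0.61 ± 0.08 (1.14e-06), each less than C4b and C3 in the same libraries. The largest rise among them was that of Itgax, the alpha chain of complement receptor 4, from 0.175 ± 0.145 CPM (SD, n = 10) to 2.34 ± 1.1 CPM (SD, n = 12), which is 3.58 ± 0.39 higher on the log2 scale (SE, adjusted p = 1.07e-07). Young inputs held only 0 to 6 estimated counts of Itgax, so the size of its rise is uncertain. Its partner chain Itgb2 rose by 0.72 ± 0.13 (adjusted p = 0.000126) and Itgam, the alpha chain of complement receptor 3, by 0.19 ± 0.07 (adjusted p = 0.0355). The call of Itgam was lost with no filter on low counts (0.18, adjusted p = 0.0510), in females only (0.19, 0.240) and with choroid plexus markers under (0.09, 0.617) or over the line (0.17, 0.305).

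Of 11 regulators tested 1 rose, 2 fell and 8 were not called, and of 2 genes of the alternative pathway 1 fell. Clu, a fluid-phase inhibitor of the membrane attack complex, rose by 0.18 ± 0.03 (SE, adjusted p = 0.000194), a call lost in females only (0.13, 0.0549). Cfp, or properdin, which stabilises the enzyme that cuts C3 in the alternative pathway, fell from 11.5 ± 1.53 CPM (SD, n = 10) to 6.24 ± 1.27 CPM (SD, n = 12), a log2 difference of -0.86 ± 0.13 (SE, adjusted p = 1.09e-05). Csmd1 and Csmd3, membrane proteins of the Csmd family found in neurons, fell by 0.32 ± 0.09 (adjusted p = 0.00884) and 0.29 ± 0.09 (adjusted p = 0.0180). Both calls were lost in females only, at -0.11 each, and that of Csmd3 also under the choroid plexus line (-0.20, adjusted p = 0.229). Cfb and C2, which supply the proteases that cut C3 and C5, did not pass, at -0.14 ± 0.11 and 0.66 ± 0.30 (adjusted p = 0.356 and 0.0989). Mbl1, a starter of the lectin pathway, C5ar2, the second C5a receptor, and Csmd2 were listed at 0 in all libraries.

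In old late against young inputs, which share the young libraries, 9 of the 28 genes rose and 5 fell, where 17% of all genes rose and 17.5% fell. The C1q chains rose by 0.97 ± 0.09, 1.00 ± 0.08 and 0.88 ± 0.09 and Itgax by 4.30 ± 0.41 on the log2 scale (SE, adjusted p = 7.65e-09, 7.06e-10, 1.18e-08 and 6.34e-09). C1ra and C1s1, which encode the proteases that Serping1 inhibits, rose by 0.57 ± 0.20 (adjusted p = 0.0270) and 0.76 ± 0.29 (adjusted p = 0.0418), both lost in females only (0.258 and 0.311) and over the choroid plexus line (0.199 and 0.202). The call of C1ra was also lost under the line (0.0740) and with no sex covariate (0.0537), and that of C1s1 with no filter (0.0512) and with only the groups compared (0.0688). Masp2, a protease of the lectin pathway, fell by 1.28 ± 0.34 (adjusted p = 0.00447), a call lost in females only (-1.01, adjusted p = 0.0717) and on both sides of the choroid plexus line (-1.50 and -1.13, 0.146 and 0.0745). Masp2 rested on 0.6 to 11.4 estimated counts in old late inputs, and C1s1 on 3.9 to 31 in young inputs. The calls of C1ra and C1s1 were also lost without single inputs, with adjusted p up to 0.0774 and 0.0913. Between old late and old early inputs 0 of 28 genes were called by edgeR, with 8 at an unadjusted p under 0.05, and DESeq2 called 2.

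In TRAP against input 9 of 26 genes were higher and 7 lower, or 16 called in all, next to 59.2% of all genes called, 30.4% higher and 28.8% lower, so the count is near that background. All 4 receptor genes tested were higher, Itgam by 4.09 ± 0.12, Itgax by 4.24 ± 0.37, Itgb2 by 4.31 ± 0.18 and Cd93 by 1.72 ± 0.16 on the log2 scale (SE, adjusted p = 3.01e-14, 3.58e-08, 1.42e-12 and 6.08e-08). The C1q chains had ratios of 19.4, 18.3 and 20.1, next to 18.0 for C3ar1 and 21.4 for C5ar1. C4b and C3, which act just after C1q in the classical pathway, thus had ratios well below those of the chains that start it. The genes lower in TRAP were C1s1 (-1.22 ± 0.36), Cd59a (-1.08 ± 0.20), Cd55 (-0.75 ± 0.18), Vtn (-0.72 ± 0.13), Clu (-0.66 ± 0.08), Csmd1 (-0.36 ± 0.12) and Susd4 (-0.23 ± 0.07, SE). Of 9 regulators tested 6 were lower, 1 was higher (Cr1l, 1.40 ± 0.10 SE, adjusted p = 1.52e-09) and 2 were not called. Fcna of the lectin pathway was also higher (3.06 ± 0.33 SE, adjusted p = 6.13e-07).

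**Figure D4:**
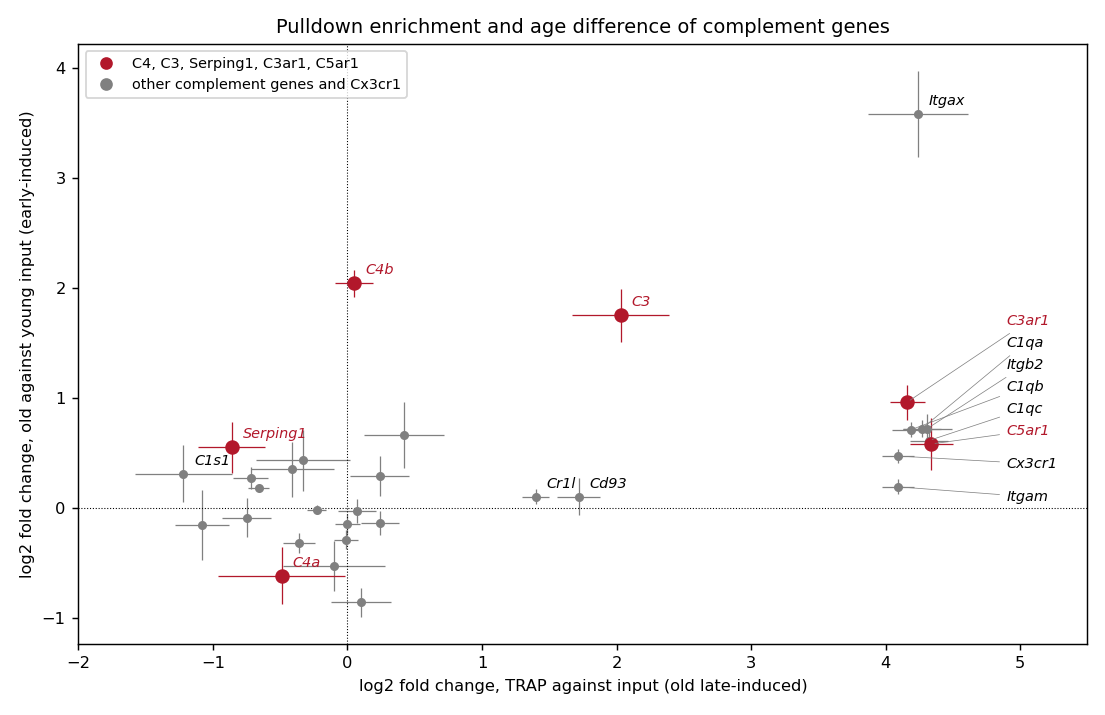
For each complement gene tested in both fits and for Cx3cr1, the log2 fold change of old early against young inputs is plotted against that of TRAP against input, with bars of 1 SE. C4b is at 2.04 on the age axis and 0.05 on the pulldown axis, C3 at 1.75 and 2.03, and C3ar1 at 0.96 and 4.16.

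Per kilobase of transcript, the members kept the same leader in the pulldown. TRAP libraries averaged 48.0 CPM per kilobase for C4b, 16.8 for C3ar1, 10.1 for C5ar1, 9.19 for C3, 2.26 for Serping1 and 0.106 for C4a. Young inputs averaged 8.63 for C4b, 2.90 for Serping1, 0.405 for C3, 0.372 for C3ar1, 0.338 for C5ar1 and 0.284 for C4a. Serping1 was thus next to C4b in young inputs and above only C4a in TRAP.

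Sex was tested in all 29 inputs with group as a covariate. C3ar1 was lower in males, by 0.69 ± 0.14 on the log2 scale (SE), with an edgeR adjusted p of 0.0286, and it was 1 of 6 members called where 0.174% of all genes were, 0.127% lower in males. In young inputs females averaged 1.85 ± 0.279 CPM and males 1.35 ± 0.167 CPM (SD, n = 5 each). In old early inputs the means were 3.86 ± 0.969 CPM (SD, n = 7) and 2.46 ± 0.982 CPM (SD, n = 5), and in old late inputs 4.81 ± 0.685 CPM (SD, n = 5) and 2.20 ± 0.0666 CPM (SD, n = 2). In old late inputs the sexes did not overlap, with males at 2.15 and 2.24 CPM and females at 3.97 to 5.61 CPM. How many of all genes separate in this way was not computed. The direction was the same in every alternative run for this gene, from -1.05 to -0.57. The call was lost without old late replicate 1 or 2, the only males of that group (adjusted p = 0.111 and 0.108), without young replicate 8 (0.0520) and without old early replicate 1 or 3 (0.0541 and 0.0552). It was also lost in early-induced animals only (-0.57, adjusted p = 0.367) and among inputs under (-1.05, 0.734) or over the choroid plexus line (-0.60, 0.512).

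The other members were not called for sex in inputs. C4b was lower in males by 0.32 ± 0.10 (SE, adjusted p = 0.272), with females at 216 ± 37.7 CPM (SD, n = 7) and males at 168 ± 23.4 CPM (SD, n = 5) in old early inputs, and near-equal means of 46.2 and 46.7 CPM in young ones. Values for C3, Serping1, C4a and C5ar1 were -0.07 ± 0.21, 0.24 ± 0.21, 0.10 ± 0.23 and 0.05 ± 0.22 (SE, adjusted p = 0.919, 0.671, 0.902 and 0.944). Cx3cr1 was at -0.01 ± 0.05 and 0 of 10 microglia markers were called. Of the other complement genes 1 of 28 was called. Itgax was lower in males by 1.39 ± 0.30 (SE, adjusted p = 0.0429), and that call was lost without each of 19 inputs in turn (old late replicates 1 to 6, young replicates 2, 3, 8 and 9 and old early replicates 1 to 3 and 6 to 11, adjusted p up to 0.154), with limma voom (0.0501), in early-induced animals only (0.358) and under (0.896) or over the choroid plexus line (0.491).

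The age difference itself did not differ detectably between the sexes. In the interaction of age and sex in the 22 early-induced inputs edgeR called 0 of 14953 genes (0%) and DESeq2 called 13, while 2301 had an unadjusted p under 0.05 in edgeR. For C4b the difference of males minus females in the age effect was -0.38 ± 0.17 (SE, adjusted p = 0.294) and for C3 -0.47 ± 0.33 (0.496). For C3ar1 it was -0.20 ± 0.35 (0.816), for C5ar1 0.40 ± 0.49 (0.723), for Serping1 0.44 ± 0.48 (0.685) and for C4a 0.36 ± 0.51 (0.765). Choroid plexus markers had a median of 2.87 in the same interaction, with 0 of 7 called, so sex and that level cannot be fully told apart here.

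In TRAP libraries, with 5 females and 2 males, 0 of 6 members were called for sex by edgeR, with 4 at an unadjusted p under 0.05. There 0.061% of 14763 genes were called, and 1986 had an unadjusted p under 0.05. C3 averaged 61.2 ± 32.9 CPM in females (SD, n = 5) and 12.2 ± 2.02 CPM in males (SD, n = 2), a log2 difference of -2.28 ± 0.53 (SE, adjusted p = 0.180). C4b averaged 298 ± 66.4 and 158 ± 28.3 CPM (-0.87 ± 0.19, adjusted p = 0.171), C3ar1 83.1 ± 18.6 and 45.5 ± 5.41 CPM (-0.83 ± 0.19, 0.177), and C5ar1 28.5 ± 3.10 and 18.8 ± 0.183 CPM (-0.56 ± 0.12, 0.171). For these 4 genes both males were below all 5 females, and the share of all genes that separate in this way was not computed. Nothing is read from that order. DESeq2 called all 4 (adjusted p = 0.0144 for C3, 0.000798 for C4b, 0.00294 for C3ar1 and 0.00993 for C5ar1) and limma voom none (0.345, 0.278, 0.278 and 0.278). Without the TRAP library of replicate 7, a female, edgeR called 3 of them, C3 (adjusted p = 0.0106), C3ar1 (0.0223) and C4b (0.0385). Microglia markers had a median log2 difference of -0.14 in the same test and 0 of 10 were called. Choroid plexus markers summed to 1148 and 1200 CPM in the TRAP libraries of the males and to 24.3 to 624 CPM in those of the females, so sex and that level cannot be told apart here.

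Likeness across the 29 inputs was measured as Pearson's r of log2 CPM against 13052 or 13053 other genes with a mean log2 CPM over 1, as a description. The inputs share age groups and library preparation, so genes that differ with age come out alike. The genes most like C4b were Gfap (r = 0.974), an intermediate filament gene of astrocytes, and Mpeg1 and Lyz2 (0.964 each), both genes of macrophages. Those most like C3 were Vim (0.950), another intermediate filament gene, C4b (0.936) and Lyz2 (0.927). C3ar1 was most like Cybb (0.935), a subunit of the phagocyte NADPH oxidase, C1qa (0.903) and C1qc (0.883). Serping1 was most like Cp (0.862), Vtn (0.848) and Aebp1 (0.848), of which Cp encodes the copper carrier ceruloplasmin. C4a and C5ar1, with the lowest counts, had the weakest partners, Ankrd13d (0.792), Tial1 (0.772) and Crocc (0.763) for C4a and Fbxw4 (0.690), Mfng (0.681) and Egln3 (0.675) for C5ar1.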

How the data were processed

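The authors deposited 1 table of estimated counts for 36172 gene entries in 36 libraries, marked raw per the file headers, and 77.4% of its nonzero values were not whole. The submitters' processing notes name mm10 and DESeq2 without a role. Aligner, counting tool and strand handling are not given in the sources used here. Groups, sex and animals came from the labels. Estimated counts were rounded. In R 4.3.3, genes passing filterByExpr (minimum count 10) were scaled by TMM and tested by glmQLFit and glmQLFTest of edgeR 4.0.16, with Benjamini-Hochberg adjustment over all genes tested and calls under 0.05. Age, induction and sex came from 1 fit of the 29 inputs (group and sex). TRAP against input used the 14 old late libraries with sex, the interaction the 22 early-induced inputs, and sex in TRAP 7 libraries. Same-animal libraries deviated together in all 7 pairs (r from 0.309 to 0.470, against a median of -0.086 between animals). No libraries of a group agreed within sampling noise (chi-square per degree of freedom 3.66 to 47.4). The fits were also run on simulated data, whose libraries were drawn independently and without pairs from the same animal. The outcome of that run is not given here and no result rests on it.

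The members and lists were chosen with earlier results of these data known. Named genes are the 6 members, the genes of the complement lists, Cx3cr1 and, per member, the 3 genes with the highest r. Gfap, Lyz2, Ly6g, Ccr2, Ly6c2, S100a8 and S100a9 were named as markers after their values were seen. Results of 1 listed gene are not reported here and it is in no count. The other 49 listed complement genes were matched, 4 by identifier, and 83 of 84 markers. RefSeq's table of GRCm38.p6 held 32891 of the identifiers, and starts lay within 1 kb of each other for 91.2%. Transcripts came from GENCODE M21. Alternatives were DESeq2 1.42.0, limma 3.58.1 (voom), other scalings, no filter, other covariates or groups, females only, the animal as a block, and each library left out. The split by choroid plexus markers was added after seeing the data.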

Additional observations from a re-analysis of the deposited data

Results flagged for a closer look

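A sample lay far from the others of its group in 2 of 24 groups of values tested, where chance flags about 1.2. Both concern C4a in the same female. In the TRAP library of old late replicate 7, C4a was at 1.61 CPM and the next highest library at 0.782 CPM, and the gap was 0.571 of the whole range (limit for 7 samples 0.568). The TRAP to input ratio of C4a in that animal was 5.35, with the next highest at 0.673 and a gap of 0.905 of the range. C4a rests on 2 to 37 estimated counts per library.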

How the results depend on the processing

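For 66 tested log2 fold changes, 1960 values were computed under the alternatives. Of these 1828 kept their direction and side of the threshold, 95 kept the direction but fell short of it, 7 newly passed it and 30 turned direction. For the 24 age and TRAP differences of the 6 members, which are described without a test, 4 of 817 values moved by more than 1 SD between libraries, while by edgeR's adjusted p 14 lost a call and 8 gained one. The cause of these differences was not tested, except that females only, single groups and the choroid plexus split use fewer libraries. Numbers of genes called follow, over all genes and, where it moved, over the 49 complement genes. Old early against young inputs gave 3826 and 10, females only 1198 and 6, and choroid plexus markers under the line 1234 and over it 2058. Old late against young inputs gave 5151 and 14, females only 2787 and 8, under the line 1875 and over it 2635 and 9. Old late against old early inputs gave 5 and 0, DESeq2 58 and 2, limma voom 3, females only 182 and 1, only the groups compared 0, under the line 101 and 3, over it 0, and single libraries left out 0 to 164 and 0 to 2 (164 and 2 without old early replicate 5, 76 and 1 without replicate 2). Sex in all inputs gave 26 and 1, DESeq2 64, early-induced animals only 12 and 0, under the line 10 and 0, over it 11 and 0, limma voom 0 complement genes, and single libraries left out 17 to 32 and 0 to 1. The interaction of age and sex gave 0 and 0, DESeq2 13, and single libraries left out 0 to 453 and 0 to 2, with 453 and 2 without old early replicate 6. Sex in TRAP gave 9 and 0, no filter 22, DESeq2 364 and 4, limma voom 5, and single libraries left out 4 to 226 and 0 to 2, with 226 and 2 without replicate 7. With the replicate block of the animal, TRAP against input gave 9330 genes instead of 8640 and the same number of complement genes, 16, and it changed no other call.

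The following values turned direction. For sex in inputs, C5ar1 was -0.04 (limma voom), -0.20 (under the line) and -0.19 (over it), C3 0.19 (early-induced only) and 0.27 (under), Cx3cr1 0.00 (early-induced only), Serping1 -0.40 (under) and C4a -0.13 (over). In the interaction C4a was 0.00 (limma voom), and for sex in TRAP Serping1 was 0.00 (upper quartile scaling) and 0.14 (limma voom). With single libraries left out, sex in inputs ranged from -0.13 to 0.05 for C3, -0.03 to 0.02 for Cx3cr1, -0.04 to 0.18 for C4a and -0.08 to 0.13 for C5ar1, the interaction from -0.04 to 0.05 for Cx3cr1 and -0.37 to 0.02 for C3ar1, and sex in TRAP from -0.28 to 0.32 for Serping1 and -1.92 to 0.32 for C4a. Calls near the threshold were lost without single inputs: Itgam without young replicate 2, 3 or 8 or old early replicate 3, 5, 6, 7, 10 or 12 (adjusted p up to 0.105), C1ra without old late replicate 3, 5 or 6 or young replicate 9 (0.0774), C1s1 without old late replicate 1, 2, 4, 5, 6 or 7 or young replicate 2, 3, 4, 5, 9 or 10 (0.0913), and Susd4 without old late replicate 2, 5 or 6, young replicate 1, 3, 4, 6 or 10 or old early replicate 7 (0.0956). In old late against young inputs C4a lost its call without any 1 of 9 inputs (0.0912), Csmd1 in females only (0.0583), Csmd3 in females only (0.129), under (0.0695) and over the line (0.101), and Susd4 in these 3 settings and with DESeq2 size factors, upper quartile scaling, no filter or no sex covariate (0.0517 to 0.369). C4a rested on 2 to 37 estimated counts per library and C5ar1 on 4 to 34 per input, and the part of depth in their changes was not tested.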
